A study of Rattus norvegicus with 15 samples.

Results

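Transcription factors of the dental epithelium were followed in rat molar germs across 3 embryonic stages. 5 genes were chosen by name, Sp6, Foxi3, Tbx1, Bcl11b and Trp63, and each was looked up in the salmon table of 14185 genes through the pairs of symbol and mouse Ensembl identifier that come with the study. The table was used for 4 of them, Sp6 (ENSMUSG00000038560), Foxi3, Bcl11b and Trp63. For Tbx1 these pairs give no identifier, so it was not analysed here.

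RNA was sequenced from single first molar germs of wild type DA/HanRj rats, in 15 libraries with 1 tooth each. The teeth fall into 3 groups of 5 by stage, and the labels name no treatment. They are called E15 (labelled E15.5), E17 (labelled E17.5) and E18. In the study E15 and E17 represent the bud and the cap stage, when the epithelium first grows into the mesenchyme and then folds around it. The E18 germs are labelled as lower first molars, whereas the jaw is not labelled for E15 and E17. Both teeth of 1 embryo were sequenced at E17, as replicates 1 and 2. The library titles carry 1 code per stage, so stage and preparation cannot be told apart. A germ holds epithelium and mesenchyme together, and fewer cells of a type and less RNA per cell cannot be told apart in such bulk samples.

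Tooth development starts from a thickened oral epithelium that signals to the mesenchyme beneath it. p63, the product of Trp63, is the master regulator of stratified epithelia, and without it tooth development stops at the start. Foxi3 is a forkhead factor that acts downstream of ectodysplasin and activin signals in the epithelium. Sp6, also called epiprofin, is a zinc finger factor of the Sp family that is needed for the differentiation of enamel-forming ameloblasts and for a normal number of teeth. Bcl11b is a zinc finger factor with a role in ameloblast formation. In the gene categories of the study, Trp63 belongs to the progression genes, whose loss stops tooth development, and Sp6, Foxi3 and Bcl11b to the shape genes, whose loss alters the form of the tooth.

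The stretch just upstream of Foxi3 is shown because GC boxes, the letters that Sp factors such as Sp6 are known to bind, can be read in it. It covers the 250 bases before the RefSeq transcription start, on the plus strand of GRCr8 at chr4:104491584-104491833, with the matches to the motifs searched in capitals.

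Foxi3: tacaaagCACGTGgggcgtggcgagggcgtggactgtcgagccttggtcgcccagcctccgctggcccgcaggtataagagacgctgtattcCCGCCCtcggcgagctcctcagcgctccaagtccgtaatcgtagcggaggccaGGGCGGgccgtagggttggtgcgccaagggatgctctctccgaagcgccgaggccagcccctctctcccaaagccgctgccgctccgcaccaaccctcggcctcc

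G and C make up 68.4% of these bases. The GC box GGGCGG, searched on both strands, was found at 2 places, where it starts 158 (as CCGCCC) and 105 bases before the transcription start. The same letters occur in 30.5% of the 33469 RefSeq windows of this length, so that their presence is common. An E-box (CACGTG), whose letters read the same on both strands, was found 243 bases before the start, and 5.59% of all windows hold one. No match was found to TATAAA (12.9% of windows), the LEF/TCF core CTTTGA (13.9%) or the forkhead core TGTTTA (12.1%), each on both strands. None of these motifs overlaps another in this window. A match is a description of the letters, and binding was not measured. No window was available for Sp6 or Bcl11b, and the available window of Trp63 was not examined on its own. Whether it holds the same motifs is therefore not described here.

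Library totals ranged from 10993502 to 27571541 counts, and E15 replicate 1 and E18 replicate 1 were the deepest. Levels are given as normalised read counts, which are counts divided by the size factor of the library. They are not divided by gene length and are therefore compared within a gene and not between genes. A gene with no count could have had up to 3 counts, which is between 1.45 and 3.68 normalised counts depending on the library, for counting error only. Log2 levels of all genes correlated between a library and the others of its stage with a mean r of 0.959 to 0.984 at the 2 earlier stages and of 0.965 to 0.968 in 4 of the E18 libraries. The mean r was 0.918 in E18 replicate 3, which thus stands apart. Values without this library and without E18 replicate 1, whose Sp6 level was low, are given beside the results. Leaving out both together was chosen after seeing the data. A Dixon test for outlying values flagged 0 of the 27 groups tested. Replicate 1 was the lowest E18 library for Sp6, Foxi3 and Bcl11b, and replicate 3 for Trp63. Leaving out both therefore raises the E18 mean of each of these genes.

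Sp6 was low at the bud stage and far higher at the cap stage. The 5 E15 libraries had 34.1, 27.4, 20.0, 37.3 and 30.2 normalised counts, which rest on 17 to 63 reads each. The 5 E17 libraries had 507, 513, 515, 606 and 576. The lowest E17 library thus lay far above the highest E15 library, and the E17 values kept close together. At E18 the libraries had 685, 1231, 1203, 1150.3 and 1388, and replicate 1 was well below the other 4 but still above every E17 library. The stage means were 29.8 ± 6.65, 543 ± 44.8 and 1131 ± 265 (SD, n = 5 each).

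Foxi3 followed the same order of stages with a smaller range. At E15 its libraries had 107, 70.2, 167, 196 and 133 normalised counts. The libraries of E17 had 530.0, 524, 610, 638 and 476, and those of E18 had 805, 1034, 971, 966 and 1041. No library of a later stage fell within the range of an earlier stage. The means were 135 ± 49.1, 556 ± 66.6 and 963 ± 95.0 (SD, n = 5 each). The spread of Foxi3 was widest at E15, where the highest library was 2.78-fold above the lowest, against 1.34-fold at E17 and 1.29-fold at E18.

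Trp63 was high at all 3 stages. The E15 libraries had 1578, 1189, 1700, 1074 and 1654 normalised counts, with replicates 2 and 4 below the others. At E17 the libraries had 2217, 1917, 2173, 2109 and 1779, and at E18 2863, 3595, 2605, 3071 and 3470.2. Every library of a later stage was again above every library of an earlier stage, although the lowest E17 library was only slightly higher than the highest E15 library. The means were 1439 ± 287, 2039 ± 185 and 3121 ± 413 (SD, n = 5 each).

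Bcl11b was the most even of the 4 genes between bud and cap. Its E15 libraries had 1491, 1369, 1429, 1569 and 1665 normalised counts and its E17 libraries 1566, 1631, 1745, 1588 and 1532. These ranges overlap, and only 1 of the 5 E17 libraries was above the highest E15 library. At E18 the libraries had 1999, 2516, 2373, 2308 and 2746, all above every earlier library. The means were 1505 ± 117, 1612 ± 82.2 and 2388 ± 275 (SD, n = 5 each).

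**Figure D1:**
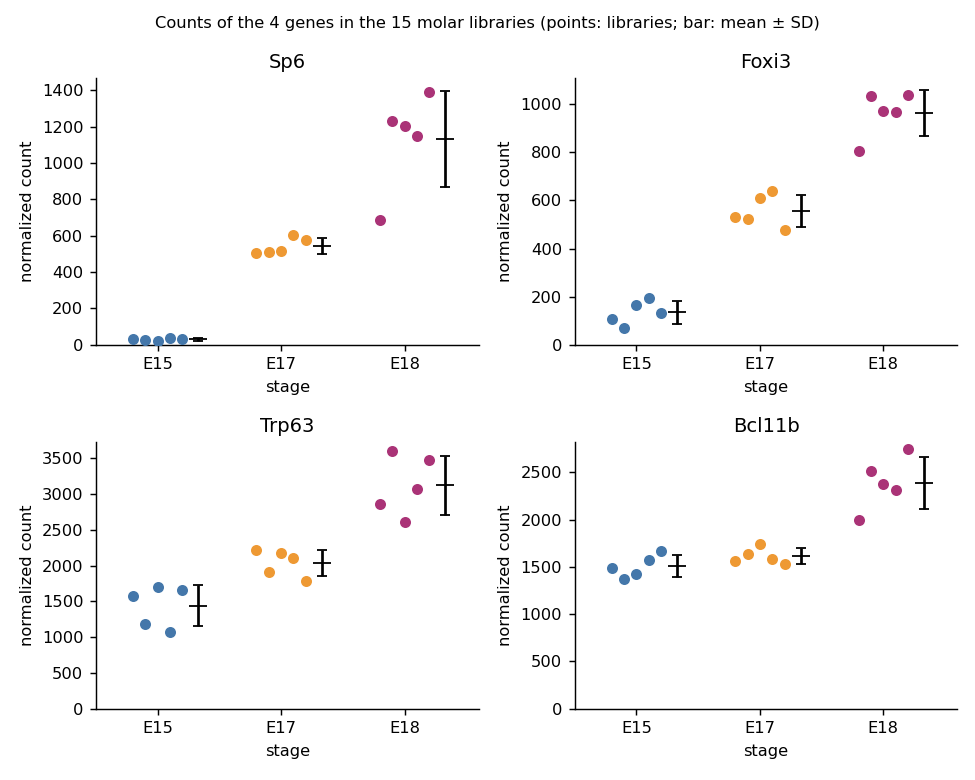
Normalised read counts of Sp6, Foxi3, Trp63 and Bcl11b in each of the 15 libraries by stage, on linear axes that start at 0 and differ between genes, with points for libraries and bars for the stage mean and SD. Sp6 climbs from 20.0 to 37.3 counts at E15 to at least 507 at E17, whereas the E15 and E17 points of Bcl11b overlap.

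From the bud to the cap stage Sp6, Foxi3 and Trp63 rose and Bcl11b did not pass the test. In the quasi-likelihood test of edgeR with Benjamini-Hochberg adjustment over 12627 genes, 3 of the 4 genes were called higher, where 11.3% of all genes tested were. Sp6 rose 18-fold (log2 fold change 4.17 ± 0.14 SE, edgeR adjusted p = 2.57e-09). It had the smallest p-value of all genes tested in this comparison and the rank of 9 by the size of the rise. Foxi3 rose 4.18-fold (2.06 ± 0.21, edgeR adjusted p = 2.34e-05). Trp63 rose 1.43-fold (0.51 ± 0.12, edgeR adjusted p = 0.0109), which gave it rank 1255 by p-value. For Bcl11b the log2 fold change was 0.11 ± 0.06 (edgeR adjusted p = 0.263). The stages did not overlap, with E17 higher, for 3 of the 4 genes and for 9.23% of all genes tested.

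From E17 to E18, which are closer in age, all 4 genes rose, where 1.91% of the 12718 genes tested were called higher. Sp6 rose 2.08-fold (log2 fold change 1.06 ± 0.16 SE, edgeR adjusted p = 0.0069) and Foxi3 1.73-fold (0.79 ± 0.10, edgeR adjusted p = 0.00262). Trp63 rose 1.53-fold (0.61 ± 0.10, edgeR adjusted p = 0.0109). Bcl11b, which had not passed between bud and cap, rose 1.48-fold (0.57 ± 0.09, edgeR adjusted p = 0.00682). The ranks of the 4 genes by p-value lay between 45 (Foxi3) and 96 (Trp63). E17 and E18 did not overlap in any of the 4 genes, as in 4.18% of all genes tested. Leaving out E18 replicates 1 and 3 was chosen after seeing the data. The log2 fold changes were then 1.20 for Sp6, 0.86 for Foxi3, 0.72 for Trp63 and 0.64 for Bcl11b, and all passed. This choice raised the E18 mean of each gene, so the larger changes are no separate evidence of a rise.

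Over the whole interval from E15 to E18 all 4 genes rose, against 14.2% of the 12661 genes tested. The rise was 37.6-fold for Sp6 (log2 fold change 5.23 ± 0.23 SE, edgeR adjusted p = 3.22e-07) and 7.21-fold for Foxi3 (2.85 ± 0.23, edgeR adjusted p = 1.49e-05). It was 2.18-fold for Trp63 (1.13 ± 0.15, edgeR adjusted p = 0.000285) and 1.60-fold for Bcl11b (0.67 ± 0.10, edgeR adjusted p = 0.000548). All E18 libraries were above all E15 libraries in each of the 4 genes, as in 12.7% of all genes tested. With E18 replicates 1 and 3 left out, again a choice made after seeing the data, all 4 genes passed. The log2 fold changes were 5.37 for Sp6, 2.93 for Foxi3, 1.24 for Trp63 and 0.75 for Bcl11b. These larger changes follow from the raised E18 means and are no separate evidence of a rise. The 3 comparisons share their libraries in pairs and are not independent of each other. The median log2 fold change of all genes was between -0.017 and -0.009 in these comparisons.

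Whether a gene changed by the same amount in both steps was tested in 1 fit of all 15 libraries, as the E17 to E18 change minus the E15 to E17 change. The interval of embryonic days differs between the steps, so this compares the steps and not rates. For Sp6 the second step was the smaller (log2 difference -3.11 ± 0.28 SE, edgeR adjusted p = 0.000126). This was the smallest p-value among the 12894 genes tested, of which 0.504% were called with a smaller second step. The difference of Foxi3 was -1.26 ± 0.32 (edgeR adjusted p = 0.115), that of Bcl11b 0.46 ± 0.15 (edgeR adjusted p = 0.246) and that of Trp63 0.10 ± 0.22 (edgeR adjusted p = 0.981). For Foxi3 and Bcl11b the call depended on which libraries entered the fit, and for Foxi3 also on the tool. Foxi3 passed without E15 replicate 4 (-1.44, edgeR adjusted p = 0.0445) and without E18 replicate 3 (-1.28, edgeR adjusted p = 0.046), and in DESeq2 with all libraries (-1.26, DESeq2 adjusted p = 0.0201). Bcl11b passed without E18 replicates 1 and 3 (0.54, edgeR adjusted p = 0.0345), an alternative chosen after seeing the data that raised its E18 mean.

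**Figure D2:**
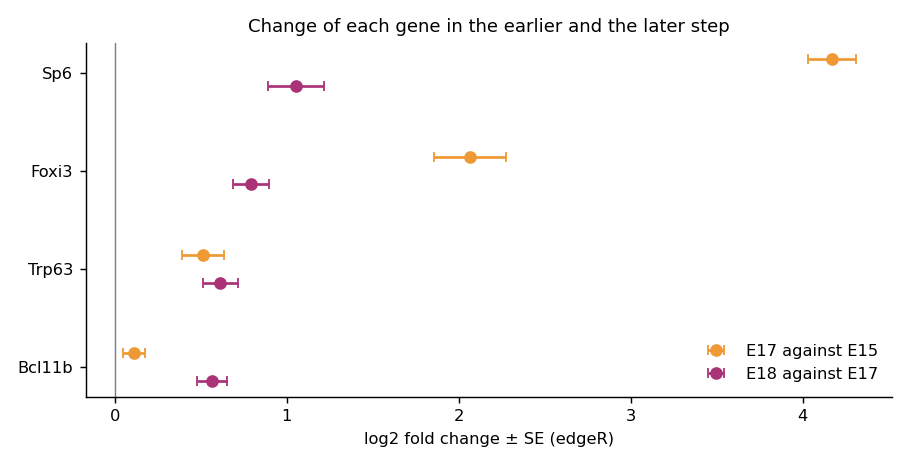
Log2 fold changes with standard errors of the 4 genes for E17 against E15 and E18 against E17, from edgeR. Sp6 (4.17) and Foxi3 (2.06) stand highest from E15 to E17, whereas the 4 genes lie between 0.57 and 1.06 from E17 to E18.

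The share of epithelium in a germ was approached through marker genes. Of 13 epithelial markers, 4 have a symbol paired with a row (Cdh3, Perp, Lama3 and Tjp3), so the keratins and E-cadherin are not covered. All 4 markers were detected, and their summed level was 1923 to 3015 normalised counts at E15, 4483 to 5369 at E17 and 5350.0 to 7179 at E18. From E15 to E17, 3 of the 4 markers rose, among them Lama3, a laminin chain of the epithelial basement membrane (log2 fold change 1.28 ± 0.12 SE), and Cdh3, or P-cadherin (0.59 ± 0.15). None of the 4 was called from E17 to E18 by edgeR (the log2 fold changes were -0.25 to 0.49). At an unadjusted p under 0.05 there was 1, Perp, and DESeq2 called none either. Of 11 mesenchymal markers, 6 have a row (Pdgfra, Col1a1, Dcn, Postn, Fbln1 and Fbln2). Their summed level was 90480 to 173300 at E15, 175200 to 307400 at E17 and 234400 to 312600 at E18. Of these 6 markers, 3 rose from E15 to E17 and Pdgfra, a receptor of mesenchymal cells, fell by 0.27 on the log2 scale. For both marker lists, the share over all genes tested from E15 to E17 was 11.3% called higher and 7.02% called lower. None of the 6 was called from E17 to E18 by edgeR, against 1 at an unadjusted p under 0.05 and 1 in DESeq2. For the marker counts at an unadjusted p and in DESeq2, the share over all genes was not computed. The summed levels of both marker lists were higher at E17 than at E15 in every library, as were Sp6, Foxi3 and Trp63 but not Bcl11b. The members are therefore also given relative to Trp63 and to the epithelial markers, whereas the part of the mesenchymal markers was not tested. No gene of the lists for endothelium, blood, muscle, cartilage and glia has a symbol paired with a row, so that RNA of these cells was not analysed here.

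To describe the members within the same tissue, each was set against Trp63 in the same library. The log2 ratio depends on the scaling of the library only through the 1 count added to each level, and only its change between stages is interpreted, because the counts are not per length. The changes were tested by two-sided exact permutation of 5 against 5 libraries, which allows no p-value below 0.00794, with adjustment over 9 tests. Sp6 relative to Trp63 was -5.55 ± 0.56 at E15 and -1.91 ± 0.21 at E17 (SD, n = 5, exact permutation adjusted p = 0.0179), a 12.5-fold increase. Foxi3 relative to Trp63 was -3.47 ± 0.63 at E15 and -1.88 ± 0.12 at E17 (SD, n = 5, exact permutation adjusted p = 0.0179), a 3.01-fold increase. Both genes thus rose more than Trp63. For Bcl11b the ratio fell by 0.42 from E15 to E17 (exact permutation adjusted p = 0.0357) and by 0.47 from E15 to E18 (exact permutation adjusted p = 0.0286). The fall from E15 to E17 did not pass without E17 replicate 1, 3 or 4 (-0.38, -0.43 and -0.40, exact permutation adjusted p = 0.0714, 0.0595 and 0.0612).

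None of the 3 ratios passed from E17 to E18. The log2 difference was 0.41 for Sp6 and 0.19 for Foxi3 (exact permutation adjusted p = 0.0714 for both) and -0.05 for Bcl11b (exact permutation adjusted p = 0.548). In single E18 libraries the ratio of Sp6 was -2.06 in replicate 1, within the E17 range of -2.13 to -1.63, and -1.55 to -1.11 in the other 4. Without E18 replicate 1 the difference was 0.56 for Sp6 (exact permutation adjusted p = 0.0286) and 0.22 for Foxi3 (exact permutation adjusted p = 0.0446). Foxi3 also passed without E17 replicate 4 (0.22, exact permutation adjusted p = 0.0476).

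Trp63 itself also moved against the 4 epithelial markers. Relative to their mean log2 level, Trp63 rose by 0.53 from E17 to E18 (1.48 ± 0.12 to 2.01 ± 0.07, SD, n = 5, exact permutation adjusted p = 0.0238 over 3 tests). The difference was -0.35 from E15 (1.83 ± 0.31) to E17 (exact permutation adjusted p = 0.0714) and 0.18 from E15 to E18 (exact permutation adjusted p = 0.23), and neither passed. With the markers in place of Trp63, an alternative chosen after seeing the data, the change from E15 to E17 was 3.30 for Sp6, 1.24 for Foxi3 and -0.77 for Bcl11b (exact permutation adjusted p = 0.00893 each). Sp6 and Foxi3 thus rose more than these markers too. In the same ratios all 3 genes rose from E17 to E18, Sp6 by 0.94, Foxi3 by 0.72 and Bcl11b by 0.48 (exact permutation adjusted p = 0.00893 each). For Bcl11b this is the opposite sign to its ratio to Trp63 (-0.05), which had not passed. By construction, all 3 differences exceed those to Trp63 by the 0.53 that Trp63 itself rose against the markers. From E15 to E18 the difference for Bcl11b was -0.29 and did not pass (exact permutation adjusted p = 0.103), unlike its ratio to Trp63.

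**Figure D3:**
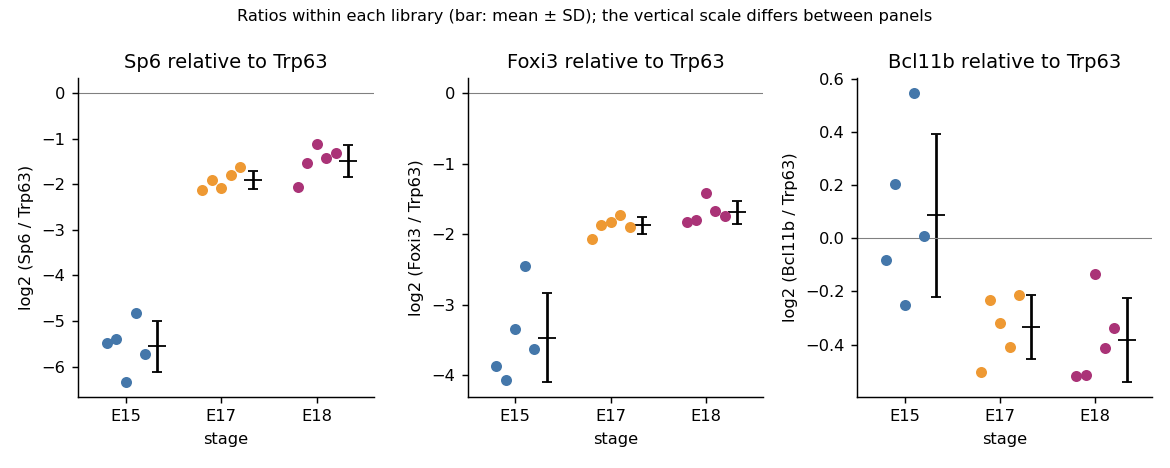
Log2 ratio of the normalised counts of Sp6, Foxi3 and Bcl11b to those of Trp63 in each of the 15 libraries, with points for libraries and bars for the stage mean and SD. The ratios of Sp6 and Foxi3 at E17 lie above all E15 libraries, and the ratio of Bcl11b is lower at E17 and E18 than in most E15 libraries.

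Sp6 and Foxi3 also changed against each other, a comparison chosen after their values were seen. The log2 ratio of Sp6 to Foxi3 was -2.08 ± 0.65 at E15 (-3.0 to -1.32), -0.03 ± 0.19 at E17 (-0.24 to 0.27) and 0.20 ± 0.25 at E18 (-0.23 to 0.42; SD, n = 5 each). All E17 libraries were above all E15 libraries, and the ratio rose 4.16-fold (2.05 on the log2 scale, two-sided exact permutation adjusted p = 0.0119 over 3 tests). From E17 to E18 the ranges overlapped and the difference was 0.23 (exact permutation adjusted p = 0.167). Without E18 replicate 1 it was 0.33 (exact permutation adjusted p = 0.0317).

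Other transcription factors of the dental epithelium were taken from a list of 17, of which 4 have a row (Lef1, Msx2, Dlx3 and Dlx4). From E15 to E17 none of the 4 passed in edgeR, none had an unadjusted p under 0.05 and DESeq2 called none, with a list median of 0.11 (log2 fold change). From E17 to E18, 2 of the 4 rose, with a median of 0.75, where 1.91% of all genes tested were called higher. The 2 were Msx2 (1.41 ± 0.16 SE, edgeR adjusted p = 0.00144), a homeobox factor that is also expressed in dental mesenchyme, and Dlx3 (0.73 ± 0.14, edgeR adjusted p = 0.0241). This count was 1 when any of E17 replicates 2, 3 and 5 or E18 replicates 2, 4 and 5 was left out. From E15 to E18, 3 of the 4 rose, which was 1 without E18 replicate 4 or 5, and Dlx4 did not pass (0.84 ± 0.31, edgeR adjusted p = 0.0803). Of all genes tested, 14.2% were called higher. Lef1, a mediator of Wnt signals, was among the 3 (0.50 ± 0.15, edgeR adjusted p = 0.0327).

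Transcription factors of the dental mesenchyme were examined in the same libraries. Of 16 listed, 11 have a row, and from E15 to E17 none was called higher by edgeR (and none at an unadjusted p under 0.05) and 5 fell, where 7.02% of all genes tested were called lower. The 5 were Lhx8 (log2 fold change -0.67 ± 0.06 SE), Gli3, a transducer of hedgehog signals (-0.52 ± 0.09), Dlx6 (-0.46 ± 0.11), Msx1 (-0.42 ± 0.10) and Lhx6 (-0.34 ± 0.09). None of the 11 passed from E17 to E18, with a list median of -0.08. At an unadjusted p under 0.05, 2 were higher and 1 lower, and DESeq2 called none. The share of all genes under these rules was not computed. The count of calls in edgeR was 2 without E18 replicate 1 and 1 without E18 replicate 3. From E15 to E18, 5 of the 11 fell, against 6.73% of all genes tested, and Dlx2 rose (0.72 ± 0.20, edgeR adjusted p = 0.0266).

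Of the 15 relatives listed from the families of the members, Sp3 and Sp4 have a row. Sp3, a broadly expressed Sp factor, fell by 0.31 on the log2 scale from E15 to E17 (edgeR adjusted p = 0.0131), when Sp6 rose. It did not pass from E17 to E18 (-0.27 ± 0.56 SE) or from E15 to E18 (-0.58 ± 0.56). Sp4 did not pass in any comparison (log2 fold changes of -0.47 to -0.08).

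Genes that p63 is known to regulate were listed beside Trp63, and 7 of 9 have a row. From E15 to E17, 4 of the 7 rose, with a list median of 0.55, where 11.3% of all genes tested were called higher. Among the 4 were Perp, a component of desmosomes (log2 fold change 1.17 ± 0.13 SE), and Bmp7, a signal of the epithelium (0.65 ± 0.08). Chuk went the other way (-0.20 ± 0.07) and did not pass. None of the 7 passed from E17 to E18 in edgeR, when Trp63 rose, and without E18 replicate 3 this count was 2. At an unadjusted p under 0.05 there were 3, and 1 passed in DESeq2. The share of all genes under these rules was not computed, so these counts have nothing to be set against. Jag2, a Notch ligand, passed only from E15 to E18 (0.79 ± 0.21), when 5 of the 7 rose and 14.2% of all genes tested were called higher. The list shares Perp and Cdh3 with the epithelial markers and Edaradd with the ectodysplasin genes.

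The ectodysplasin and activin pathways, which are known to act upstream of Foxi3, are covered by 9 of 9 listed genes. From E15 to E17, 4 of the 9 rose, with a list median of 0.12, where 11.3% of all genes tested were called higher. Of the ligands, Inhbb, the activin beta-B subunit, rose by 1.95 ± 0.27 (log2 fold change ± SE), whereas the values were 0.12 ± 0.09 for Inhba and -0.21 ± 0.12 for Eda, which did not pass. Edar, the ectodysplasin receptor, rose by 0.84 ± 0.15 and its adaptor Edaradd by 0.55 ± 0.14. Fst, which encodes the activin antagonist follistatin, rose by 0.45 ± 0.10. The activin receptors Acvr2a (0.01 ± 0.07) and Acvr2b (-0.26 ± 0.17) did not pass. From E17 to E18, 2 of the 9 rose, Edar (0.89 ± 0.14) and Eda (0.47 ± 0.09), where 1.91% of all genes tested were called higher. Only 1 of the 9 rose when any of E17 replicates 1, 2, 4 and 5 or E18 replicates 2 and 5 was left out. From E15 to E18 Edar rose by 1.73 ± 0.17 and 4 of the 9 passed, where 14.2% of all genes tested were called higher.

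The primary enamel knot is the signalling centre of the epithelium at the cap stage, and all 10 of its listed genes have a row. From E15 to E17, 5 of the 9 that could be tested rose, with a list median of 1.25, where 11.3% of all genes tested were called higher. Shh, the hedgehog ligand of the knot, rose by 4.57 ± 0.51 and Fgf3 by 5.72 ± 0.54 (log2 fold change ± SE). Wnt10a (1.33 ± 0.12), Cdkn1a, the cell cycle inhibitor p21 (1.49 ± 0.23), and Slit1 (1.17 ± 0.24) rose as well. Fgf20 (1.25 ± 0.61), Wnt10b (0.41 ± 0.14), Dkk4 (0.34 ± 0.53) and Fgf9, which went the other way (-0.50 ± 0.25), did not pass. Fgf4 was the gene that could not be tested. Only Shh passed from E17 to E18 in edgeR (1.35 ± 0.16, edgeR adjusted p = 0.00187), where 1.91% of all genes tested were called higher. DESeq2 called 2 of the 10, as did edgeR without E18 replicate 1. The share of all genes called was not computed for these fits. From E15 to E18, 7 of the 10 rose, where 14.2% of all genes tested were called higher.

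Genes of the enamel matrix, which ameloblasts later secrete, are barely covered. Of 7 listed, Amelx and Ambn have a row. Amelx, or amelogenin, did not pass in any comparison (log2 fold changes of -0.08, 0.35 and 0.26 for E17 against E15, E18 against E17 and E18 against E15). Ambn, or ameloblastin, had too few counts to be tested, with none in any E15 library (up to 3 counts allowed), up to 5.46 normalised counts at E17 and 1.23 to 9.05 at E18.

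**Figure D4:**
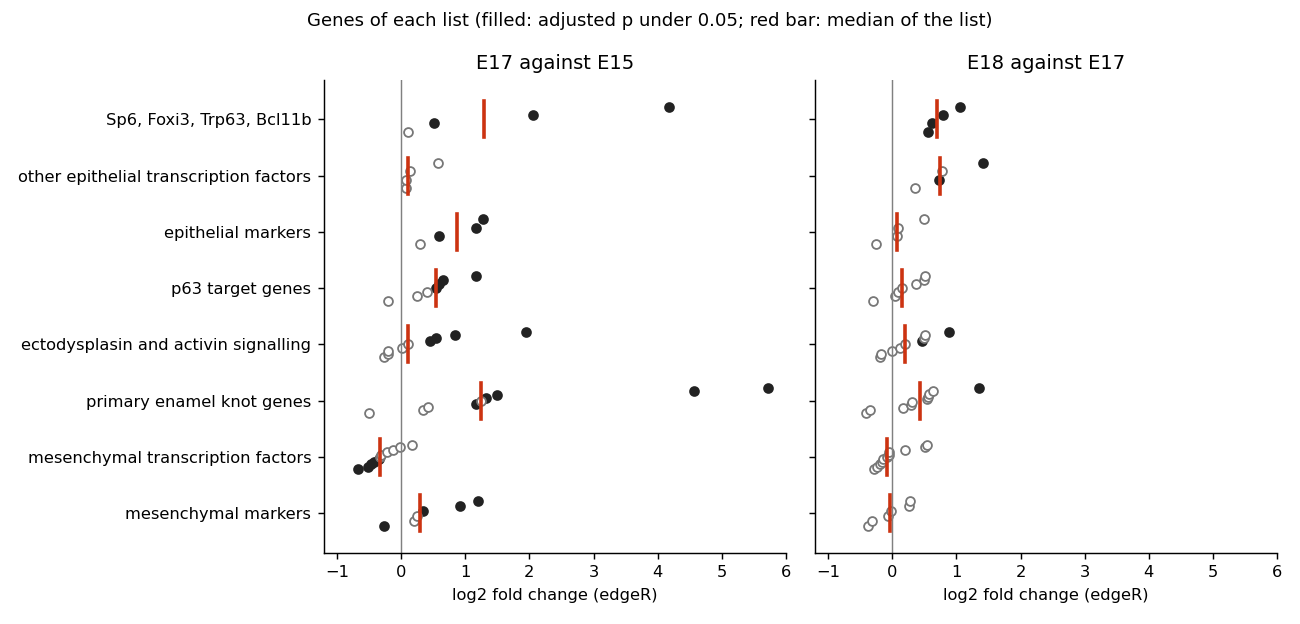
Log2 fold changes of the single genes in each list for E17 against E15 and E18 against E17, with filled points for genes that passed, open points for those that did not and a bar at the list median. From E15 to E17 the mesenchymal transcription factors that passed are all below 0 (-0.67 to -0.34). The passing genes of the epithelial marker, p63, pathway and enamel knot lists are all above 0. Of the mesenchymal markers that passed, Col1a1 (1.19), Dcn (0.92) and Postn (0.34) are above 0 and Pdgfra (-0.27) is below.

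Finally, the genes with the most similar profile were identified for each member, among 345 genes with a symbol and a mean of at least 10 normalised counts. Likeness is the root mean square difference of the centred log2 levels over the 15 libraries, a description in which the stage differences have a large part. For Trp63 the nearest genes were Edaradd (0.13), Rnf43 (0.23) and Nkd2 (0.24), where the median candidate was at 0.54. For Bcl11b they were Sdc1 (0.14), Tle3 (0.16) and Wnt6 (0.17), with a median candidate of 0.41.

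For Foxi3 the nearest genes were Thy1 (0.39), Inhbb (0.50) and Slit1 (0.54), with a median candidate of 1.24. Thy1, a cell surface glycoprotein, had 143 ± 21.4, 469 ± 34.1 and 858 ± 222 normalised counts at E15, E17 and E18 (SD, n = 5 each). Sp6 had no gene as close, and its nearest were Mmp9 (0.78), Aqp3 (0.81) and Aqp9 (0.89), with a median candidate of 2.21. Mmp9, a matrix protease, had 27.5 ± 12.5, 322 ± 199.7 and 776 ± 220.0 normalised counts (SD, n = 5 each). Aqp3, a water and glycerol channel, had 40.9 ± 22.5, 314 ± 39.3 and 686 ± 210.4. Between the members themselves the difference was smallest for Bcl11b and Trp63 (0.28) and largest for Sp6 and Bcl11b (2.05).

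**Figure D5:**
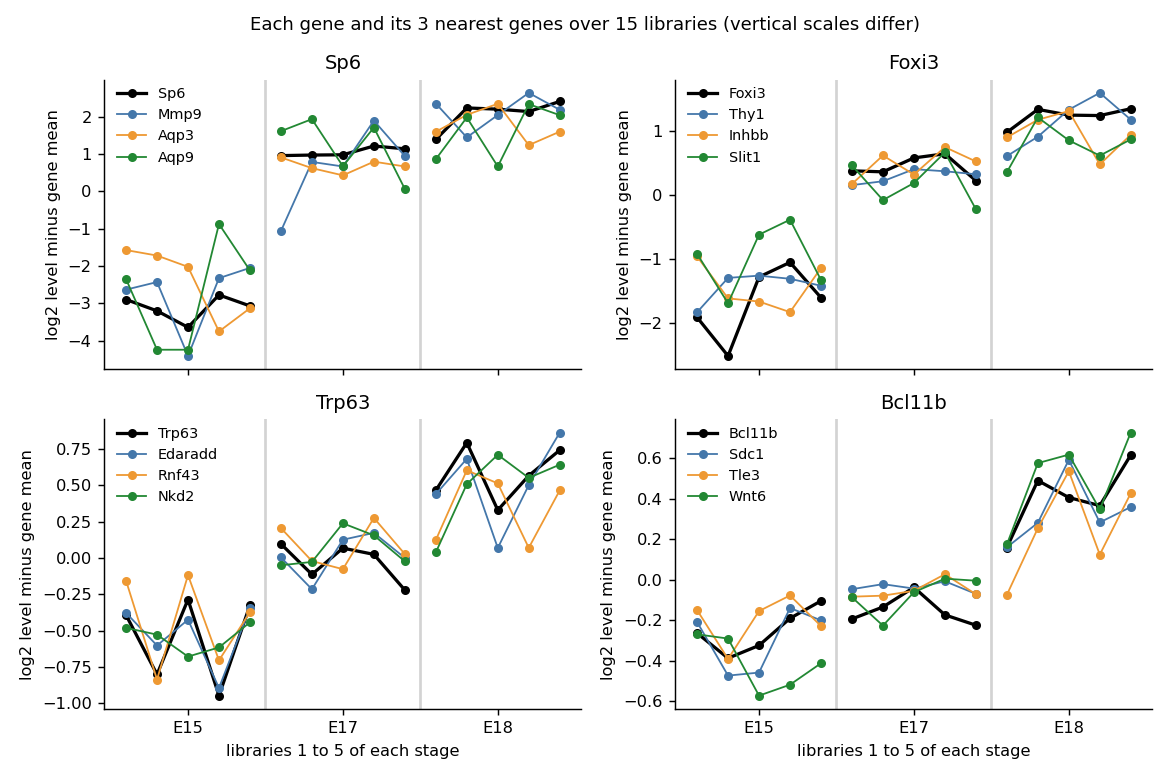
Centred log2 level of each member and its 3 nearest genes over the 15 libraries, ordered by stage, where lines only join the points of a gene. The profile of Edaradd stays close to that of Trp63 (0.13), whereas the genes nearest to Sp6 differ from it by 0.78 or more.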

How the data were processed

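Per the labels and the methods of the study, RNA of single teeth was made into libraries with the Ovation Rat RNAseq System. The authors estimated expected counts with salmon, which the submitters' processing notes give as version 0.99.0 with the build Rnor_6.0 for E18, and deposited them as whole numbers for 14185 genes under mouse Ensembl identifiers, neither normalised nor corrected for length. Rounding therefore changed no value. The processing notes of the E15 and E17 libraries name STAR and HTSeq and not salmon, although the salmon counts cover all 15 libraries. The transcript set, the use of strand and the mapping from rat genes to mouse identifiers are not given in the sources used here, so overlapping genes are uncertain and the isoforms of Trp63 were not told apart. A second deposited table of counts under rat identifiers was not used, because no table here pairs these with symbols.

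Symbols were joined through 395 pairs listed with the study, of which 352 have a row, and a few further genes are not reported here and entered no list. Counts were tested with edgeR 4.0.16 (R 4.3.3; quasi-likelihood, TMM, filterByExpr, Benjamini-Hochberg, adjusted p under 0.05), with only the stages compared in a fit and all stages for the step difference. Standard errors were derived from the F statistic. Size factors were those of DESeq2 1.42.0, and ratios used log2(normalised count + 1). The test was checked on data simulated from the libraries. The members and gene lists were chosen with earlier results of these data known, so counts over lists are descriptions. Genes named are the members, the listed genes and the 3 nearest genes of each member. The labels do not say whether embryos of a stage came from 1 litter, so p-values measure the spread between these teeth. Alternatives covered scaling, test, low-count filter, left-out libraries, the teeth of 1 embryo joined, side of the jaw and the samples in the fit.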

Additional observations from a re-analysis of the deposited data

How the results depend on the processing

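In all 208 refits of the changes of the 4 genes between stages (scaling, DESeq2, filters, left-out libraries, joined teeth, side of the jaw, samples in the fit), each change kept its direction and its side of the threshold. The joined teeth are E17 replicates 1 and 2. Sp6 from E15 to E17 ranged from 4.07 to 4.25 on the log2 scale and its step difference from -3.20 to -2.95. Of 88 refits of step differences 4 passed where the main test had not, all for Foxi3 or Bcl11b. For Foxi3 these were DESeq2 (-1.26, DESeq2 adjusted p = 0.0201) and 2 left-out libraries (range of all left-out libraries -1.44 to -1.10), and for Bcl11b the fit without E18 replicates 1 and 3 (0.54), an alternative chosen after seeing the data. With left-out libraries the ratios to Trp63 ranged from -0.50 to -0.31 for Bcl11b from E15 to E17, which lost its call in 3 of 10, and from E17 to E18 from 0.12 to 0.22 for Foxi3 and from 0.32 to 0.56 for Sp6, which gained one in 2 and 1 of 10. The ratio of Sp6 to Foxi3 from E17 to E18 ranged from 0.17 to 0.33 and gained a call in 1 of 10. With epithelial markers in place of Trp63, also chosen after seeing the data, the E17 to E18 ratio was 0.48 for Bcl11b, 0.72 for Foxi3 and 0.94 for Sp6. For Bcl11b this reversed a difference that had not passed (-0.05). Bcl11b from E15 to E18 was -0.29 and no longer passed. By construction, these values differ from the ratios to Trp63 by the change of Trp63 itself against the markers. That change was 0.53 from E17 to E18 and 0.18 from E15 to E18. Why Trp63 changed against the markers was not tested. Among list counts from E17 to E18, DESeq2 called 1 mesenchymal marker, 1 p63 target and 2 enamel knot genes, and left-out libraries gave 1 to 3 ectodysplasin and activin genes, 1 to 3 other epithelial factors, 0 to 2 mesenchymal factors, 0 to 2 p63 targets, 1 to 2 enamel knot genes and 0 to 1 markers of either tissue. From E15 to E18 they gave 1 to 4 other epithelial factors. The share over all genes was not computed for DESeq2 or for the left-out libraries. No paired analysis was possible because the labels number no replicates, and the numbers used here only name the teeth. The comparison with the second count table was not run, since its rat identifiers could not be joined to symbols. Depth limits Sp6 at E15, where a library held 17 to 63 reads.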
